A study of Mus musculus with 6 samples.

Results

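Toll-like receptors and the proteins of their MyD88 pathway were followed as 10 genes: the surface receptors Tlr1, Tlr2 and Tlr4 with the co-receptor Cd14, the endosomal receptor Tlr7, and the adaptors and kinases Myd88, Irak4, Irak2, Irak3 and Traf6. They were named with earlier results of these data known, and their rows were found by gene name in a table of 10539 genes. All 10 were present and passed the filter on low values (a mean of at least 1 FPKM, fragment counts scaled to gene length and to the fragments mapped in the library, over the 6 libraries), among 9617 genes tested. RNA was sequenced from alveolar macrophages of C57BL/6 mice, phagocytes that live in the airspaces of the lung. In the group CEBPβ, 3 libraries came from macrophages overexpressing the transcription factor C/EBPβ, and in the group CEBPβ-A, 3 libraries came from such macrophages treated with an adenovirus for A20 (A20-Ad). C/EBPβ overexpression is thus common to both groups, and no group without it was analysed here. The labels' protocols say that the isolated cells were given adenovirus, but the sources used here do not give which virus the CEBPβ cells received, how C/EBPβ was introduced, the time after the virus, or age and sex. The labels name replicates without saying that they were separate animals or cultures, so p-values measure only how far these libraries differ, which may be technical.

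Toll-like receptors recognise conserved microbial molecules. At the cell surface TLR2 pairs with TLR1 or TLR6 to detect bacterial lipoproteins, and TLR4 detects lipopolysaccharide handed over by CD14 to its partner MD-2, while TLR7 detects single-stranded RNA in endosomes. All of the receptors among the 10 genes recruit the adaptor MyD88, which assembles IRAK4 with IRAK1 or IRAK2. These kinases engage the ubiquitin ligase TRAF6, whose chains activate the kinase TAK1 and then NF-κB. IRAK3, also called IRAK-M, restrains this relay, and A20, encoded by Tnfaip3, removes ubiquitin chains from TRAF6 and other carriers.

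Promoter sequences of 4 of the 10 genes are shown: Tlr2 and its partner Tlr1, which lay far apart in level, and Irak3 and Traf6, the genes of the set with the smallest unadjusted p-values between the groups. Each is 300 bases, from 250 before to 50 after the RefSeq start site (GRCm38.p6), written 5′ to 3′ on the strand of the gene. Capitals mark 3 short motifs searched on both strands: a form of the NF-κB site (GGG, any 2 bases, TT, any 1 base, CC), GAGGAA, a core of the macrophage factor PU.1, and TTGCNNAA, a form of the C/EBP site.
Tlr2 (chr3:83841559-83841858, minus strand): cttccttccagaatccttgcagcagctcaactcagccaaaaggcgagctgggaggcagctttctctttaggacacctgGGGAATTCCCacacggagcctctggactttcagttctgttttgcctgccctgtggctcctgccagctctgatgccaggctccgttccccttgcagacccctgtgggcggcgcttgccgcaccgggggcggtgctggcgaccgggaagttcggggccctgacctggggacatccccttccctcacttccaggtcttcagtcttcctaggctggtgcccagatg
Tlr1 (chr5:64933509-64933808, minus strand): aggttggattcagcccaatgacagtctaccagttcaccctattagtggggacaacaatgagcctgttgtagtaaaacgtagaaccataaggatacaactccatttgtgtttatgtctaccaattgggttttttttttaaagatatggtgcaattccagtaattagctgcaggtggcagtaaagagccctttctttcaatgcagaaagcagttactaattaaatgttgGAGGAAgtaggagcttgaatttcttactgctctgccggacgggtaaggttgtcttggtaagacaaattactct
Irak3 (chr10:120202081-120202380, minus strand): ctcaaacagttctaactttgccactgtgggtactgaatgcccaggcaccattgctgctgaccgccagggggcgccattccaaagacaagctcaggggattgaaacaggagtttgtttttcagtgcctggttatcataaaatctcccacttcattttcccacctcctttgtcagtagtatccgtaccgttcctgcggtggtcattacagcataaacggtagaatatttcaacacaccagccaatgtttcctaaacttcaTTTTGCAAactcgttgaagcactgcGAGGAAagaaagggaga
Traf6 (chr2:101678170-101678469, plus strand): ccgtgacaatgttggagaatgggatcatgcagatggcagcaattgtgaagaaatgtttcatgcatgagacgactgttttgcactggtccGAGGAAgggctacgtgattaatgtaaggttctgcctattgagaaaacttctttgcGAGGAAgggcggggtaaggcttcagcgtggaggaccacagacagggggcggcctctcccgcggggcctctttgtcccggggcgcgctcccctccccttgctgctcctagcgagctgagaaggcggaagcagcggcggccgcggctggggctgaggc
The Tlr2 window held the NF-κB form, beginning 172 bases before the start site. It reads the same on both strands, and the deposited locus of Tlr2 begins 159 bases further upstream than the RefSeq start. Of 32851 promoter windows of this length, 4.79% held that form. PU.1 cores began 23 bases before the start site in Tlr1 and 161 and 106 bases before it in Traf6, and 28.3% of all windows held one. The Irak3 window held a PU.1 core and a C/EBP form (minus strand), both after the start site, and 10.8% of all windows held the C/EBP form. The matches overlapped in none of the 4 windows. A match describes letters in this window and no binding was measured here. RefSeq windows for Myd88, Irak2 and Irak4 held none of the 3 motifs, so 7 of the 10 genes were searched. The deposited locus of Myd88 begins 1393 bases further upstream than its RefSeq start, so that window does not cover the start of the deposited gene.

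The labels were checked first at Tnfaip3. It stood at 8.76, 17.7 and 19.2 FPKM in CEBPβ replicates 1, 2 and 3 and at 7.94, 15.5 and 7.32 in CEBPβ-A, so the transcript was not higher in the libraries labelled CEBPβ-A (log2 fold change −0.53, SE 0.34, limma adjusted p = 0.606). Whether reads from A20-Ad would be counted in this mouse gene row was not tested, so the row cannot decide on the labels. Directions below are between libraries as labelled. Depth is unknown because only FPKM was deposited. Cebpb stood at 429 ± 66.6 FPKM in CEBPβ and 411 ± 70.5 in CEBPβ-A (SD, n = 3 each, limma adjusted p = 0.888). A first principal component with 44.3% of the variance set CEBPβ-A replicate 3 far from the rest, and its deviation from the mean of the libraries fell with the length of the gene (Spearman rho −0.53 across genes, which are not independent replicates; 0.42 to −0.065 in the other 5). The log2 fold change between the groups also fell with exon length (rho −0.48 over 9600 genes, and −0.29 without that library). The part of length in the signs and medians of the pathway lists below was not tested. Alveolar macrophage markers were present (12 of 12), and their levels were not all alike in the groups. Siglecf stood at 101 to 106 FPKM over all libraries, while Car4 (44.3 to 48.0 against 54.1 to 76.1 FPKM), Ear2 (671 to 772 against 862 to 1008), Fabp1 (4.14 to 6.62 against 8.90 to 12.0), Ctsk (253 to 313 against 322 to 467) and Pparg (37.0 to 38.3 against 40.1 to 42.5) lay wholly higher in CEBPβ-A than in CEBPβ. Itgax lay wholly lower (506 to 517 against 451 to 489 FPKM). For Siglecf, Marco, Mrc1, Chil3, Lyz2 and Fabp4 the groups overlapped, with Marco at 555 to 746 against 539 to 597 FPKM. Over all genes tested, 7.89% lay wholly higher in CEBPβ-A and 8.86% wholly lower. The part of these markers in the results was not tested. Of the listed markers of B cells (5 genes), T and NK cells (9), endothelium (5) and red cells (4), 0 could be matched to a row. The 1 dendritic cell marker of 7 in the table, Clec9a, stayed at or below 0.467 FPKM, and the 1 fibroblast marker of 5, Pdgfra, at or below 1.00 FPKM.

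None of the 10 genes passed the threshold of the test over all genes (limma, adjusted p under 0.05), where 5 of 9617 genes did (0.0520%). The groups overlapped for each of the 10, whereas 16.8% of all genes tested had groups that did not. At an unadjusted p under 0.05 there were also 0 of 10, beside 8.18% of all genes. With the replicate number as a block 0 of 10 passed, beside 0.0104% of all genes, and 2 of 10 (Irak3 and Traf6, both lower in CEBPβ-A) had an unadjusted p under 0.05, beside 13.4%. The median log2 fold change over the 10 was −0.058, beside −0.013 over all genes tested, with 4 positive and 6 negative. The smallest adjusted p among them was 0.59. A missed threshold does not show equal levels, and the 95% interval of each difference is given below (from limma, not adjusted for the number of genes). In bulk RNA, fewer cells of a type and less RNA per cell cannot be told apart.

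**Figure D1:**
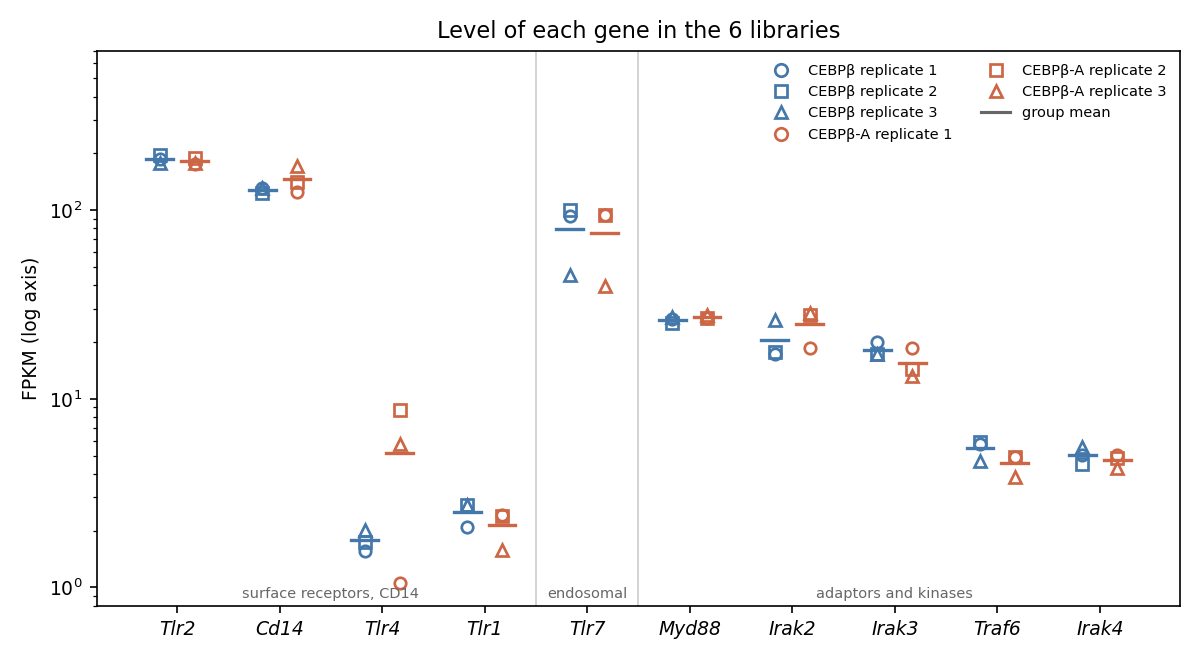
FPKM (log axis) of each of the 10 genes in the 6 libraries, CEBPβ in blue and CEBPβ-A in orange, with a mark shape per replicate and a bar at each group mean. The groups overlap for every gene, Tlr4 is high in CEBPβ-A replicates 2 and 3 only, and Tlr7 is low in replicate 3 of both groups.

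The levels spanned a wide range. FPKM is scaled to gene length, but the libraries still differed in their trend with length (above), so levels of different genes compare only roughly. Averaged over the 6 libraries, Tlr2 was highest at 184 FPKM (98.1st percentile of genes tested), then Cd14 at 137, Tlr7 at 77.7, Myd88 at 26.7, Irak2 at 22.6 and Irak3 at 16.8. Traf6 at 5.0, Irak4 at 4.88, Tlr4 at 3.47 and Tlr1 at 2.33 lay lowest. The ranges over libraries did not overlap between Tlr2 and Cd14, Cd14 and Tlr7, Tlr7 and Myd88, or Irak3 and Traf6. They overlapped between the other neighbours in this order, which therefore have no settled rank. Within each library Tlr2 exceeded Tlr1, by 64.8-fold to 112-fold.

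Among the surface receptors Tlr2, the common partner of TLR1 and TLR6, was the steadiest. It stood at 186, 196 and 178 FPKM in CEBPβ and at 176, 190 and 177 in CEBPβ-A. No library of either group stood out, and the means were 187 ± 9.05 and 181 ± 7.45 FPKM (SD, n = 3 each). The log2 fold change was −0.043 (SE 0.07, limma adjusted p = 0.843). The interval of the difference ran from −0.21 to 0.13 on the log2 scale. Tlr2 (ENSMUSG00000027995.10) lies on the minus strand of chromosome 3 from 83836272 to 83841767 (GRCm38, as all positions here).

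Tlr1, the partner of TLR2 for triacylated lipoproteins, stood near the filter at 2.10, 2.73 and 2.75 FPKM in CEBPβ and 2.42, 2.39 and 1.58 in CEBPβ-A. The lowest library was CEBPβ-A replicate 3, and the others overlapped (log2 fold change −0.18, SE 0.14, 95% interval −0.51 to 0.15, limma adjusted p = 0.655). Without both replicate 3 libraries the difference was 0.0021. Tlr1 (ENSMUSG00000044827.10, chromosome 5, 64924679 to 64933563, minus strand) shares 13.6% of its transcripts' 50-base words with Tlr6, its neighbour in the family, so reads may have been divided between them and both levels are uncertain. Tlr6, the other partner of TLR2, stood at 11.1 ± 1.41 FPKM in CEBPβ and 9.93 ± 1.06 in CEBPβ-A (SD, n = 3 each), below Tlr2 by 15.8-fold to 20.2-fold in every library.

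Tlr4, the lipopolysaccharide receptor, had the largest fold change of the 10 and the least agreement between libraries. CEBPβ stood at 1.56, 1.75 and 2.01 FPKM. CEBPβ-A stood at 1.05 in replicate 1, 8.74 in replicate 2 and 5.74 in replicate 3. The highest libraries and the lowest were thus all from CEBPβ-A, with CEBPβ between them. The means were 5.18 ± 3.87 against 1.77 ± 0.226 FPKM (SD, n = 3 each), a ratio of 2.92 that did not pass (log2 fold change 0.89, SE 0.50, 95% interval −0.27 to 2.05, limma adjusted p = 0.591). Within CEBPβ-A the SD of log2(FPKM + 1) was 1.17 for Tlr4, and 10 of 5684 genes tested with a mean of 1 to 10 FPKM, Tlr4 included, had an SD at least as large (0.176%). Without CEBPβ-A replicate 1 the log2 fold change was 1.55 (limma adjusted p = 0.131), and without replicate 2 of that group it was 0.43. Tlr4 (ENSMUSG00000039005.13) lies on chromosome 4 from 66827584 to 66930284, plus strand, and no exon of another gene overlaps its exons in GENCODE M21.

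The co-receptor and partner of TLR4 are given beside it. Cd14, the co-receptor that delivers lipopolysaccharide, stood at 131, 124 and 130 FPKM in CEBPβ and 125, 141 and 171 in CEBPβ-A. CEBPβ-A replicate 3 was highest and replicate 1 lay within the CEBPβ range (log2 fold change 0.17, SE 0.11, 95% interval −0.094 to 0.43, limma adjusted p = 0.61). Without CEBPβ-A replicate 3 the difference was 0.051. Cd14 exceeded Tlr4 by 16.2-fold in the library where Tlr4 was highest and by 119-fold where it was lowest. Ly96, which encodes MD-2, stood at 10.8, 10.2 and 7.37 FPKM in CEBPβ and 10.3, 10.4 and 9.31 in CEBPβ-A (log2 fold change 0.090, limma adjusted p = 0.817). It had no high value in CEBPβ-A replicates 2 and 3, where Tlr4 was high. The identifier of Cd14 is ENSMUSG00000051439.6. The median log2 fold change over Tlr1, Tlr2, Tlr4 and Cd14 was 0.064. It was −0.019 after quantile normalization and −0.0023 with the length trend removed, so it has no stable sign.

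Tlr7, the endosomal receptor for single-stranded RNA, differed between replicates more than between groups. It stood at 92.7, 101 and 45.2 FPKM in CEBPβ and at 93.7, 94.1 and 39.8 in CEBPβ-A. Replicate 3 was the low library in both groups, and replicates 1 and 2 of the groups lay close together. The means were 79.5 and 75.9 FPKM (n = 3 each), and the log2 fold change was −0.086 (SE 0.40, limma adjusted p = 0.946). That spread leaves an interval from −1.01 to 0.84, the widest of the 10 after that of Tlr4. Tlr7 (ENSMUSG00000044583.13) lies on the minus strand of chromosome X from 167304929 to 167330558. Leaving out CEBPβ-A replicate 3 turned the difference to 0.32, and leaving out CEBPβ replicate 3 gave −0.45, neither past the threshold.

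**Figure D2:**
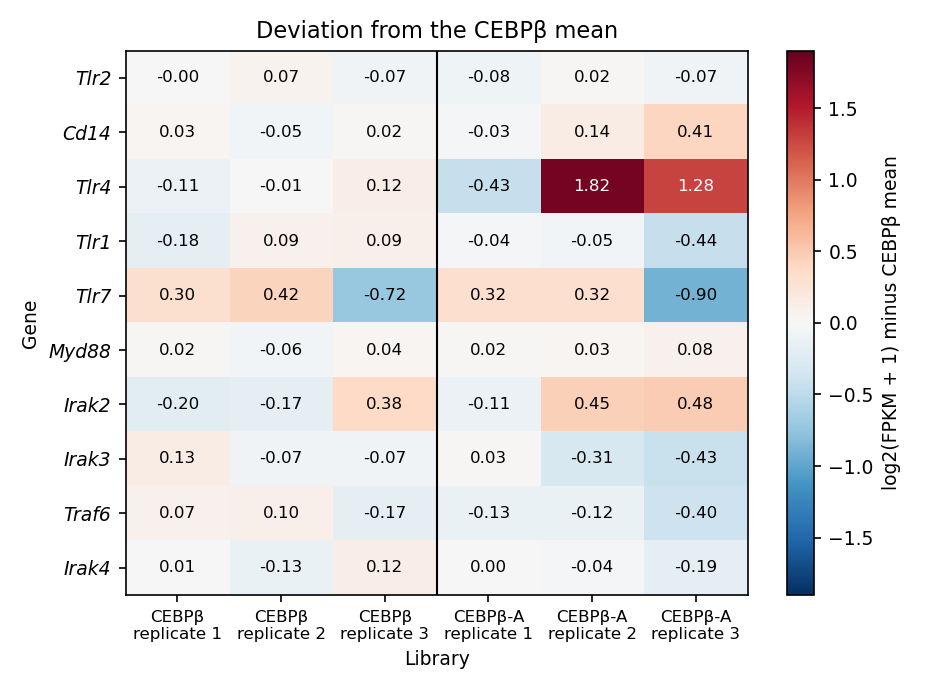
Deviation of each library from the mean of the 3 CEBPβ libraries, as log2(FPKM + 1), for the 10 genes (rows) and 6 libraries (columns), red above and blue below. Tlr4 reaches 1.82 and 1.28 in CEBPβ-A replicates 2 and 3 and −0.43 in replicate 1, while the Myd88 row stays within 0.082 of 0.

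Myd88, the adaptor shared by these receptors, was the most even of the signalling genes. It stood at 26.6, 25.2 and 27.0 FPKM in CEBPβ and 26.7, 26.9 and 27.9 in CEBPβ-A. The groups interleaved (log2 fold change 0.045, SE 0.07, 95% interval −0.11 to 0.20, limma adjusted p = 0.819). With the length trend removed the difference was −0.0090. Myd88 (ENSMUSG00000032508.8) lies on chromosome 9 from 119335934 to 119341411, minus strand. Exons of Acaa1a on the opposite strand cover 11.3% of its exons. The libraries were stranded, but whether counting used strand is not given in the sources used here.

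Irak4, the first kinase to join MyD88, stood at 5.06, 4.49 and 5.55 FPKM in CEBPβ and 5.02, 4.87 and 4.29 in CEBPβ-A. All values lay between 4.29 and 5.55 and the groups interleaved (log2 fold change −0.074, SE 0.10, 95% interval −0.31 to 0.17, limma adjusted p = 0.801). Without both replicate 3 libraries the difference was 0.043. Irak4 (ENSMUSG00000059883.16) lies on chromosome 15 from 94543643 to 94581815, plus strand, with 7.87% of its exons under exons of Twf1 on the other strand. Irak1, the kinase that IRAK4 activates, stood at 20.7 ± 4.27 and 20.4 ± 2.99 FPKM in CEBPβ and CEBPβ-A (SD, n = 3 each; log2 fold change −0.016, limma adjusted p = 0.975). That sign turned under several settings.

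Irak2, the kinase that sustains the signal, and Irak3, its inhibitory relative, had means that differed in opposite directions, and neither difference passed. Irak2 stood at 17.3, 17.6 and 26.3 FPKM in CEBPβ and 18.5, 27.7 and 28.4 in CEBPβ-A. There were 3 libraries near 18 FPKM and 3 between 26.3 and 28.4, and each group held libraries of both kinds (log2 fold change 0.28, SE 0.21, 95% interval −0.20 to 0.75, limma adjusted p = 0.64). Irak3 stood at 20.0, 17.3 and 17.3 FPKM in CEBPβ and 18.5, 14.5 and 13.3 in CEBPβ-A. CEBPβ-A replicates 2 and 3 lay below all CEBPβ libraries and replicate 1 did not (log2 fold change −0.24, SE 0.13, 95% interval −0.54 to 0.062, limma adjusted p = 0.59). Within libraries the ratio of Irak2 to Irak3 was 0.861, 1.02 and 1.52 in CEBPβ and 0.997, 1.92 and 2.14 in CEBPβ-A, and these ranges overlapped. Without CEBPβ-A replicate 1 the log2 fold changes were 0.47 for Irak2 and −0.37 for Irak3 (limma adjusted p = 0.399 and 0.381), and without its replicate 3 they were 0.17 and −0.14. Irak2 (ENSMUSG00000060477.14) lies on chromosome 6 from 113638467 to 113695026, plus strand, and Irak3 (ENSMUSG00000020227.10) on chromosome 10 from 120141648 to 120202130, minus strand. Opposite-strand exons cover 4.44% of Irak2 and 5.98% of Irak3 exons.

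Traf6, the ubiquitin ligase downstream of the kinases and a substrate of A20, stood at 5.77, 5.89 and 4.70 FPKM in CEBPβ and 4.89, 4.91 and 3.87 in CEBPβ-A. Replicate 3 was the low library of each group, and CEBPβ replicate 3 lay below CEBPβ-A replicates 1 and 2. The means were 5.45 ± 0.658 and 4.55 ± 0.592 FPKM (SD, n = 3 each). The log2 fold change was −0.22 (SE 0.12, 95% interval −0.50 to 0.063, limma adjusted p = 0.591). Its exons together span 7883 bases, the longest of the 10 genes, and with the length trend removed the difference was −0.12 (limma adjusted p = 0.766). Without CEBPβ-A replicate 3 it was also −0.12. Traf6 (ENSMUSG00000027164.8) lies on chromosome 2 from 101678429 to 101701669, plus strand. Over Myd88, Irak4, Irak2, Irak3 and Traf6 the median log2 fold change was −0.074, with 2 positive and 3 negative. Without both replicate 3 libraries that median was 0.043.

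**Figure D3:**
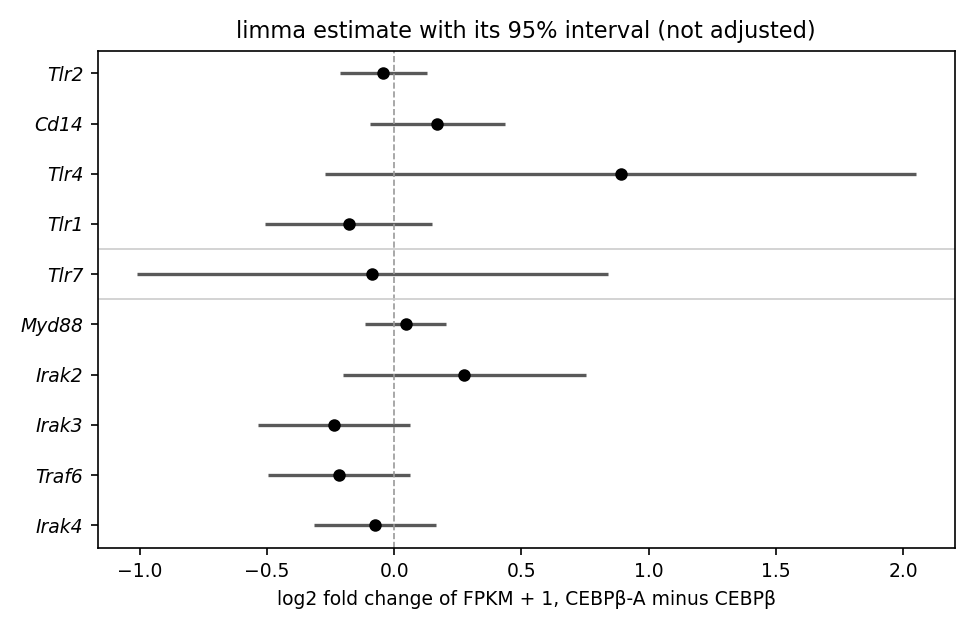
The log2 fold change of FPKM + 1 (CEBPβ-A minus CEBPβ) for each of the 10 genes, with a bar for its 95% interval from limma. Every interval includes 0, those of Tlr2 and Myd88 are narrow, and those of Tlr4 and Tlr7 are the widest.

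The other Toll-like receptors gave 0 calls. Of 9 listed, Tlr9, Tlr11 and Tlr12 could not be matched to a row. Of the 6 tested (Tlr3, Tlr5, Tlr6, Tlr8, Tlr13 and the related Cd180) all 6 had a negative log2 fold change, with a median of −0.18, and the groups overlapped for each. Tlr13, an endosomal receptor for bacterial ribosomal RNA in mice, was the most abundant at 93.8 ± 8.49 FPKM in CEBPβ and 91.4 ± 12.2 in CEBPβ-A (SD, n = 3 each; log2 fold change −0.042, limma adjusted p = 0.907). Tlr8, a close relative of Tlr7, stood at 74.2, 78.9 and 59.4 FPKM in CEBPβ and 81.2, 75.3 and 39.7 in CEBPβ-A (log2 fold change −0.17, limma adjusted p = 0.818). Tlr3, the receptor for double-stranded RNA, which uses the adaptor TRIF in place of MyD88, had the lowest value of the list's fold changes (−0.39, limma adjusted p = 0.596), with 1.75 FPKM in CEBPβ-A replicate 3 against 3.78 to 4.51 elsewhere. Without that library the differences of Tlr5, Tlr8 and Tlr13 became positive (0.039, 0.15 and 0.072).

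Partners and chaperones of the receptors also gave 0 calls. Of 17 tested, 12 had a positive and 5 a negative log2 fold change (median 0.063), beside 4480 positive and 5137 negative over all genes tested. In 4 of them CEBPβ-A lay wholly above CEBPβ, where 7.89% of all genes did so. At an unadjusted p under 0.05, 2 of 17 were higher (Scimp and Lgmn), beside 3.76% of all genes. The 4 genes were Scimp, an adaptor that binds Toll-like receptors (23.3 ± 2.07 against 19.5 ± 1.44 FPKM, log2 fold change 0.25), Ly86, the MD-1 partner of CD180 (8.47 ± 0.317 against 7.19 ± 0.764, 0.21), Lgmn, an endosomal protease that cleaves such receptors (193 ± 15.3 against 168 ± 6.39, 0.19), and Hmgb1 (0.090), with n = 3 each and limma adjusted p of 0.588 to 0.681. Unc93b1, which carries TLR7 and its relatives to endosomes, stood at 164 ± 6.22 FPKM in CEBPβ and 162 ± 9.18 in CEBPβ-A (log2 fold change −0.024, limma adjusted p = 0.916).

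The other adaptors, kinases and ubiquitin enzymes gave 0 calls among 26 tested, with 20 negative and 6 positive (median −0.085). Ube2v1, named after its values were seen, had the highest log2 fold change (0.85, limma adjusted p = 0.589), with groups that overlapped. It stood at 28.8 FPKM in CEBPβ-A replicate 3 and at 5.28 to 9.14 in the other libraries. In 5 of the 26, CEBPβ-A lay wholly below CEBPβ, where 8.86% of all genes did so. Map3k7, which encodes TAK1, the kinase activated by TRAF6 chains, stood at 10.6, 11.8 and 7.21 FPKM in CEBPβ and 5.83, 6.01 and 5.93 in CEBPβ-A (log2 fold change −0.63, SE 0.16, limma adjusted p = 0.588). Ticam2, the TRAM adaptor that links TLR4 to TRIF, stood at 15.9 ± 0.999 against 12.8 ± 0.966 FPKM (log2 fold change −0.29, adjusted p = 0.588). Irf7 (−0.43), a factor induced by interferon, and Pik3ap1 (−0.31), an adaptor to phosphoinositide 3-kinase, also had groups that did not overlap. Peli3, a Pellino ubiquitin ligase named after its values were seen, was the other one (−0.17). Traf3 had −0.54 with groups that overlapped, at 7.03, 5.48 and 3.99 FPKM in CEBPβ and 4.58, 3.37 and 2.45 in CEBPβ-A. Its level fell from replicate 1 to replicate 3 in both groups. With the replicate number as a block its unadjusted limma p was 0.000598, and it did not pass (adjusted p = 0.32). Tirap, the bridge between MyD88 and TLR2 or TLR4, had −0.14 (SE 0.31, limma adjusted p = 0.878) and turned positive without CEBPβ-A replicate 3 (0.23).

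Inhibitors of the pathway also gave 0 calls among 14 tested, with 5 positive and 9 negative (median −0.095). The lowest log2 fold change was that of Tnfaip3, given above (−0.53), with groups that overlapped. CEBPβ-A lay wholly above CEBPβ in 1 of the 14, beside 7.89% of all genes. It lay wholly below in 1 of the 14, beside 8.86%. Otulin, which removes linear ubiquitin chains, lay wholly higher in CEBPβ-A (19.7 ± 1.11 against 17.4 ± 0.770 FPKM, n = 3 each; log2 fold change 0.18, limma adjusted p = 0.588). Tnip1, an A20 partner, lay wholly lower (29.0 ± 1.27 against 32.0 ± 0.440 FPKM, n = 3 each; −0.14, adjusted p = 0.588).

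Listed genes that MyD88 signalling is known to induce had mostly lower means in CEBPβ-A. Of 35 listed, Il6, Il12b, Il12a, Il10, Ptgs2, Nos2 and Cd40 could not be matched to a row. Of 27 tested, 1 passed downward, Acod1, the enzyme of itaconate synthesis, at 67.2, 68.8 and 63.0 FPKM in CEBPβ and 41.6, 41.9 and 36.8 in CEBPβ-A (log2 fold change −0.71, SE 0.08, limma adjusted p = 0.0495). That call sits at the threshold and was lost in 12 of 18 alternative settings. The median over the 27 was −0.20, with 24 negative. In 11 of 27 CEBPβ-A lay wholly below CEBPβ, beside 8.86% of all genes, and 12 of 27 had an unadjusted p under 0.05 downward, beside 4.42%. In the other direction Fos, a subunit of the AP-1 factor named after its values were seen, lay wholly higher in CEBPβ-A (log2 fold change 0.30, limma adjusted p = 0.588) and was the 1 gene of 27 with an unadjusted p under 0.05 upward, beside 3.76% of all genes. The list was written with such results of these data known, so it is not independent evidence of its direction. Cxcl2, Saa3, Nfkbiz and Ccl3 followed Acod1 by p (log2 fold changes −0.69, −0.75, −0.60 and −0.52, limma adjusted p = 0.0738, 0.195, 0.265 and 0.356). Whether this list differed from the 10 receptor and adaptor genes was not tested.

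**Figure D4:**
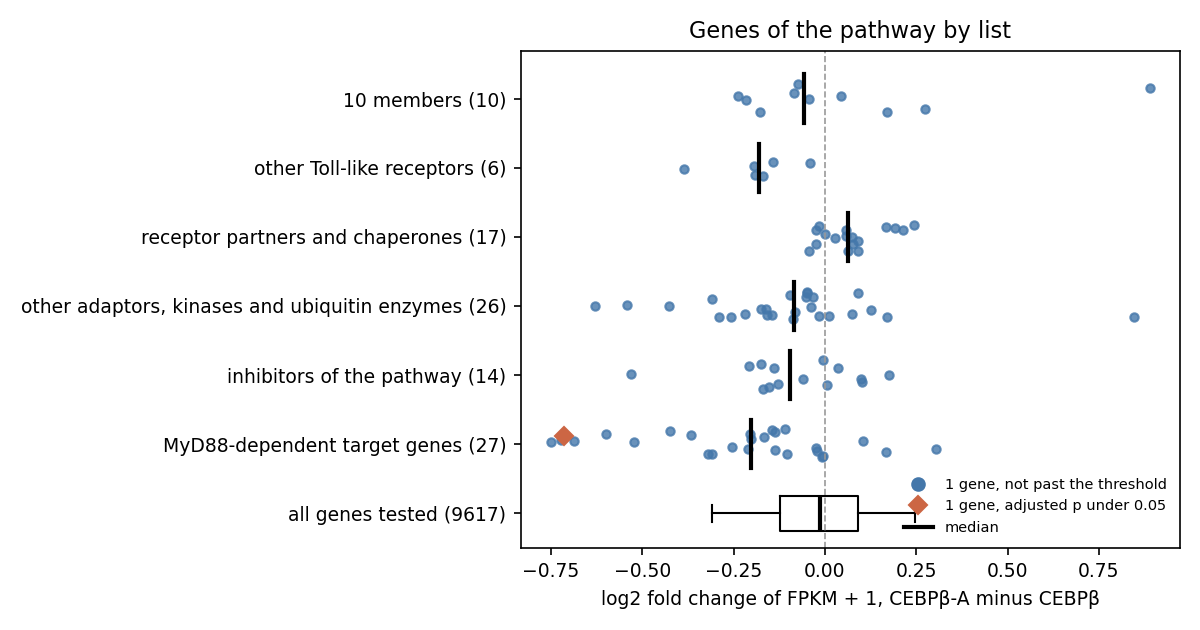
The log2 fold change of FPKM + 1 (CEBPβ-A minus CEBPβ) of each tested gene by list, with a black bar at the median, and a box for all 9617 genes tested (box from the lower to the upper quartile, whiskers at the 5th and 95th percentiles). The single diamond is Acod1, the gene past the threshold among these lists, and the 10 receptor and adaptor genes lie on both sides of 0.

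The summed markers of neutrophils and of monocytes and interstitial macrophages did not overlap between the groups. Of the neutrophil markers, 3 of 7 were in the table and summed to 214 to 263 FPKM in CEBPβ and 298 to 317 in CEBPβ-A, nearly all of it S100a8, with the receptor Csf3r at 8.66 to 11.6 FPKM. Of the monocyte and interstitial macrophage markers, 7 of 8 summed to 239 to 261 FPKM in CEBPβ and 219 to 233 in CEBPβ-A, nearly all of it Csf1r. Of the epithelial markers, 4 of 9 summed to 30.3 to 40.7 FPKM in CEBPβ and 34.6 to 67.9 in CEBPβ-A, the highest library being CEBPβ-A replicate 3, mostly through Scgb1a1, with Cdh1 at 5.44 to 6.58 FPKM. None of the detected markers was at 0 in any library. Their part in the values of the 10 genes was not tested.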

How the data were processed

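RNA sequencing of 6 libraries, 3 per group, was used. The authors deposited 1 table of FPKM values, per the file headers, on GRCm38, per the submitters' processing notes. Not given in the sources used here is any aligner, FPKM program, annotation release or rule for listing genes. The header announces 9 value columns and 6 were used. Low values showed no whole-read steps (highest periodicity 0.155 to 0.187 per library, where 1 would be perfect steps), so reads could not be recovered and no counting interval is given.

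Genes with a mean of at least 1 FPKM were tested as log2(FPKM + 1), which understates changes of low genes, with limma 3.58.1 (R 4.3.3, intensity trend, two-sided, Benjamini-Hochberg over 9617 genes, threshold 0.05). The script was tested on simulated data. Replicate numbers were not modelled. The 10 genes and the 5 pathway lists were chosen with earlier results of these data known. Of each list up to 5 genes by p, any past the threshold and a fixed few are named. Of 12 symbols on more than 1 row, the row whose identifier carries that symbol in GENCODE M21 was used for lists. Gene lengths, overlaps and 50-base words came from GENCODE M21, promoters from RefSeq. Alternatives were 2 pseudocounts, 2 filters, 3 scalings, 2 limma settings, a replicate block and single libraries left out. 2 were added after seeing the data.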

Additional observations from a re-analysis of the deposited data

How the results depend on the processing

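None of the 10 genes passed under any of the 18 alternatives, 16 planned and 2 chosen after seeing the data (a length trend removed, and both replicate 3 libraries left out). Their adjusted p was lowest for Tlr4, 0.131 without CEBPβ-A replicate 1. Tlr2, Cd14, Irak2, Irak3, Traf6 and Tlr4 kept their sign in every alternative in which they were tested; a mean of at least 5 FPKM removed Tlr1, Tlr4 and Irak4. The count over all genes was 5, and 0 with a mean of at least 5 FPKM (522 at an unadjusted p under 0.05), 2 after quantile normalization, 1 with the replicate block and 1 to 9 with libraries left out (lowest without CEBPβ-A replicate 1, highest without its replicate 3). The count over the other pathway lists was 1 (Acod1). It was 0 with either pseudocount, no filter, a mean of at least 5 FPKM, quantile normalization, limma without the trend and the replicate block, 2 with the length trend removed (Acod1 and Ccl3, adjusted p = 0.0201 for Ccl3), and 0 to 2 with libraries left out. The median of the 10 genes ran from −0.085 to 0.023 and that of the adaptors and kinases from −0.14 to 0.043 with libraries left out. Signs near 0 turned. With libraries left out the range was −0.45 to 0.32 for Tlr7 (0.065 and 0.12 without CEBPβ replicates 1 and 2), −0.27 to 0.0021 for Tlr1, −0.14 to 0.043 for Irak4, −0.11 to 0.072 for Tlr13 (0.017 and 0.0022 also positive), −0.39 to 0.039 for Tlr5 (0.017), −0.36 to 0.15 for Tlr8 (0.030), −0.40 to 0.301 for Tirap (0.23), −0.061 to 0.18 for Ly96 (−0.015), −0.070 to 0.037 for Unc93b1 (0.0052 and 0.0071), −0.20 to 0.051 for Cebpb (0.018) and −0.13 to 0.14 for Irak1 (0.012, 0.067 and 0.028). With the length trend removed Myd88 had −0.0090, Ly96 −0.051 and Irak1 0.0081, and with median-of-ratios scaling Irak1 had 0.0044. The cause of these changes was not tested.

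Deviations of same-numbered libraries of the groups correlated at 0.0993, 0.25 and 0.26 across genes for replicates 1, 2 and 3. Each library correlated best with its own number, which is a hint from the data and not the design. For CEBPβ-A replicate 1 the lead was small, with 0.0869 for CEBPβ replicate 2. With the replicate block the adjusted p was 0.372 for Irak3 and Traf6, the smallest of the 10. Depth is unknown, so the precision rests on 3 libraries per group.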

Other observations

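Tlr7 was lower in the replicate 3 library than in replicates 1 and 2 of its own group by a like factor in both groups: the ratio to their mean was 0.468 in CEBPβ and 0.423 in CEBPβ-A. This pattern was seen in the values and then counted, so no test is given. Of 9617 genes tested, 9 had a replicate 3 library at less than 0.5 of the mean of replicates 1 and 2 in both groups (0.0936%), Tlr7 among them. Tlr8 also lay lower in both replicate 3 libraries than in the other 4, with ratios of 0.776 in CEBPβ and 0.508 in CEBPβ-A. So did Tlr6, Tlr13 and Traf6, whose ratios ran from 0.786 to 0.862. In the other direction Myd88 was higher in both replicate 3 libraries than in the other 4, by 1.04-fold in each group. Tlr1, Tlr2, Tlr3, Tlr4, Tlr5, Cd180, Cd14, Irak2, Irak3 and Irak4 did neither. Of all 9617 genes tested, 1636 lay below (17%) and 996 above (10.4%) in this way, so the genes named here are to be read beside those shares. Irak2 had ratios of 1.51 and 1.23. Replicate 3 of both groups thus shared low Tlr7, while Tlr3 and Tlr5 were low in CEBPβ-A replicate 3 (ratios 0.442 and 0.368) and not in CEBPβ replicate 3 (0.896 and 0.926).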
